A study of Arabidopsis thaliana with 2 samples.

Results

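The precursors mir390a and mir390b of Arabidopsis thaliana are the 2 hairpin RNAs from which miR390 is cut. They were taken by name from the deposited lists of precursor fragments, as 2 of 153 precursor names. The assay, SPARE, joins an adaptor to free 5′ ends of RNA, copies the joined RNA from a primer specific to the precursor, and so records where a precursor was cut. The genotypes were a mutant for which the labels give no more than the name fiery, and the wild type Col-0. A single library was made of each, from pooled tissue (seedlings harvested at 2 weeks, with leaves and inflorescences harvested at 5 weeks). Tags, which are distinct read sequences, numbered 1755 in fiery (33192 reads) and 677 in wild type (12129 reads). With 1 library per genotype no difference between them has a replicate check, and no test was made. Ranges in parentheses are exact 95% intervals, by Clopper-Pearson where the value is a share and by the conditional binomial method where it is a ratio. They cover no error other than counting, because PCR copies carried no molecular identifier and are not independent molecules. The tissues were mixed and the mutated gene was not measured, so the labels of genotype and tissue had no check in these data.

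In plants, DICER-LIKE1 cuts a microRNA precursor at the side of its base and at the side of its loop, and releases a duplex of the mature strand and its partner. miR390 is loaded by ARGONAUTE7 and binds the non-coding TAS3 transcripts, which are then made double-stranded and diced in phase into trans-acting siRNAs. These siRNAs target auxin response factors and act in leaf polarity, the timing of leaf traits and lateral root growth. The mature strand miR390-5p lies on the 5′ arm of the hairpin, and its partner miR390-3p lies on the 3′ arm.

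The annotated precursors show which parts the copies share (RefSeq annotation of TAIR10.1, capitals mark miR390-5p and then miR390-3p).
mir390a, chr2:16061954-16062060, plus strand: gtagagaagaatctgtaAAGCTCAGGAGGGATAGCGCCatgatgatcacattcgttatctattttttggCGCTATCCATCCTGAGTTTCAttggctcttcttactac
mir390b, chr5:23636947-23637066, plus strand: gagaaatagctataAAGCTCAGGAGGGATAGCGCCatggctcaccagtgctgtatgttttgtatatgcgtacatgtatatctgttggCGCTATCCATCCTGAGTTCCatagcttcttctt
miR390-5p of both copies, seed (bases 2 to 8) in capitals: aAGCTCAGgagggatagcgcc

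The copies have the same mature strand of 21 nt. Their 3′ strands, compared over 21 nt, differ by 1 substitution, T19C (mir390a base, position counted from the 5′ end of miR390-3p, mir390b base). Outside the duplex they diverge. The region between the strands has 31 nt in mir390a and 52 nt in mir390b and aligns with 44.2% identity (23 of 52 positions). The precursors as a whole align with 64.8% identity (83 of 128 positions). Gaps count as differences in both values, so that the unequal lengths lower them. The predicted fold (RNAfold) of mir390a has a single terminal loop and 76.6% of its bases paired, whereas that of mir390b has 75.0% paired and opens into 2 terminal loops. Neither precursor overlaps another annotated gene. The nearest genes of mir390a are TBL34, 3939 nt to its left, and the long non-coding RNA gene AT2G08955, 1145 nt to its right. Those of mir390b are CHX25, 1909 nt to its left, and TAF15b, 348 nt to its right, both on the other strand.

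The targets are shown to place the mature strand in its pathway. In each of the 3 TAS3 loci the 2 stretches most complementary to miR390-5p were as follows (capitals mark bases in Watson-Crick pairs with miR390-5p, and positions below are counted from its 5′ end).
TAS3a upstream site, chr3:5862099-5862119: GGtGtTATCCtatCTGAGCTT
TAS3a downstream site, chr3:5862343-5862363: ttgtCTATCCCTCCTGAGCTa
TAS3b upstream site, chr5:20134458-20134478: GaCGCTATCttaCCTGAGCTT
TAS3b downstream site, chr5:20134674-20134694: ttatgTATCCCTCtTGAGCTg
TAS3c upstream site, chr5:23394221-23394241: GGCatTATCCtcgCTGAGCTT
TAS3c downstream site, chr5:23394422-23394442: GtttCTATtCCTCCTGAGCTT
The 3 upstream sites each have a mismatch at position 10, in the middle of the pairing, and the 3 downstream sites have none there. In the downstream site of TAS3a the mismatches lie at positions 1 and 18 to 21. For TAS3a it is known that the downstream site is cut, whereas the upstream site is bound and not cut. Since the copies share the mature strand, these sites are the same for both of them. TAS3 transcripts were not measured here.

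The first question was where each precursor was cut. A fragment that starts with miR390-3p is left by a loop-side cut made while the base was still intact. A fragment that starts just after miR390-3p is left by a base-side cut, whichever cut came first. Most ends of mir390a lay at the base-side cut in both libraries, at a single nucleotide, whereas those of mir390b near that cut were spread over 3 positions in fiery, and mir390b had ends near the loop-side cut in both libraries. The tags that carry this are these (capitals mark bases of miR390-5p or miR390-3p, so that a tag without capitals starts beyond the duplex).
mir390a, base-side cut, wild type: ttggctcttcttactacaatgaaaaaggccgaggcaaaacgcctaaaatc
mir390a, inside miR390-3p, wild type: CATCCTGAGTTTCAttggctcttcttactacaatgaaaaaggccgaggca
mir390a, before miR390-5p, fiery: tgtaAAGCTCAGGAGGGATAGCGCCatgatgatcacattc
mir390b, base-side cut, wild type: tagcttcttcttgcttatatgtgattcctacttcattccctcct
mir390b, next nucleotide, fiery: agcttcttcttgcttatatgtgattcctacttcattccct
mir390b, near the loop-side cut, fiery: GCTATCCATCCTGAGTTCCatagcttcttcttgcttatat
mir390b, near the loop-side cut, wild type: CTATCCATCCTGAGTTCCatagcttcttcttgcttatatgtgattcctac
mir390b, inside miR390-3p, wild type: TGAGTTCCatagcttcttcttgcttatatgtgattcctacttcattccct
mir390b, start of miR390-5p, fiery: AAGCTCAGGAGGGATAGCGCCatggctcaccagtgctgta

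mir390a had 44 reads in 2 tags in fiery and 81 reads in 3 tags in wild type. Its base-side end, at chromosome 2, position 16062044, held 41 of 44 reads in fiery (93.2%, 81.3 to 98.6) and 67 of 81 reads in wild type (82.7%, 72.7 to 90.2). The intervals of the 2 libraries overlap. No read lay at any other position within 2 nt of this cut, so that exact and wider windows gave the same share. No read lay within 2 nt of the loop-side cut in either library. The counts of 0 loop-side reads among 41 at either cut in fiery and among 67 in wild type allow a loop-side share of up to 7.32% in fiery and 4.48% in wild type (3 counts). The exact intervals reach higher, to 8.60% in fiery and 5.36% in wild type.

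The remaining reads of mir390a differed between the libraries. In fiery, 3 reads began 4 nt before miR390-5p and ran through it into the loop region, so that the mature strand was still joined to the sequence on either side of it. In wild type, 12 reads (14.8%, 7.90 to 24.4) began at nucleotide 8 of miR390-3p, 14 nt before the base-side cut. There was no such read among 44 in fiery, which allows a share of up to 6.82% by 3 counts and 8.04% by the exact interval. The other 2 wild-type reads began 486 nt downstream of the annotated precursor, outside the hairpin.

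mir390b had 64 reads in 9 tags in fiery and 23 reads in 3 tags in wild type. Its main end was the same in both libraries, at chromosome 5, position 23637055, with 28 of 64 reads in fiery (43.8%, 31.4 to 56.7) and 11 of 23 reads in wild type (47.8%, 26.8 to 69.4). This is 1 nt beyond the annotated base-side cut. The annotated miR390-3p of mir390b has 20 nt and, in the predicted fold, leaves an overhang of 1 nt at the base. The end that was read corresponds to a 3′ strand of 21 nt and an overhang of 2 nt, which are the values annotated and predicted for mir390a.

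In fiery a further 15 reads of mir390b (23.4%, 13.8 to 35.7) began 1 nt after the main end, and 5 reads began 3 nt before it. In wild type there was no read at either position. The first would give a wild-type tag of 43 nt, a length that the library holds. The second would give a tag of 47 nt, and no wild-type tag had 46 to 49 nt, so that this end could not be seen there. These lengths follow from the wild-type tag of 44 nt, which stopped short of the read length and was taken to end at the primer. No mir390a tag stopped short of the read length, so that the primer end of that copy is not known. Its base-side tags filled the read length in both libraries, so that ends upstream of that cut would also give full-length tags. Whether wild-type ends just beyond that cut could be seen is not known.

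**Figure D1:**
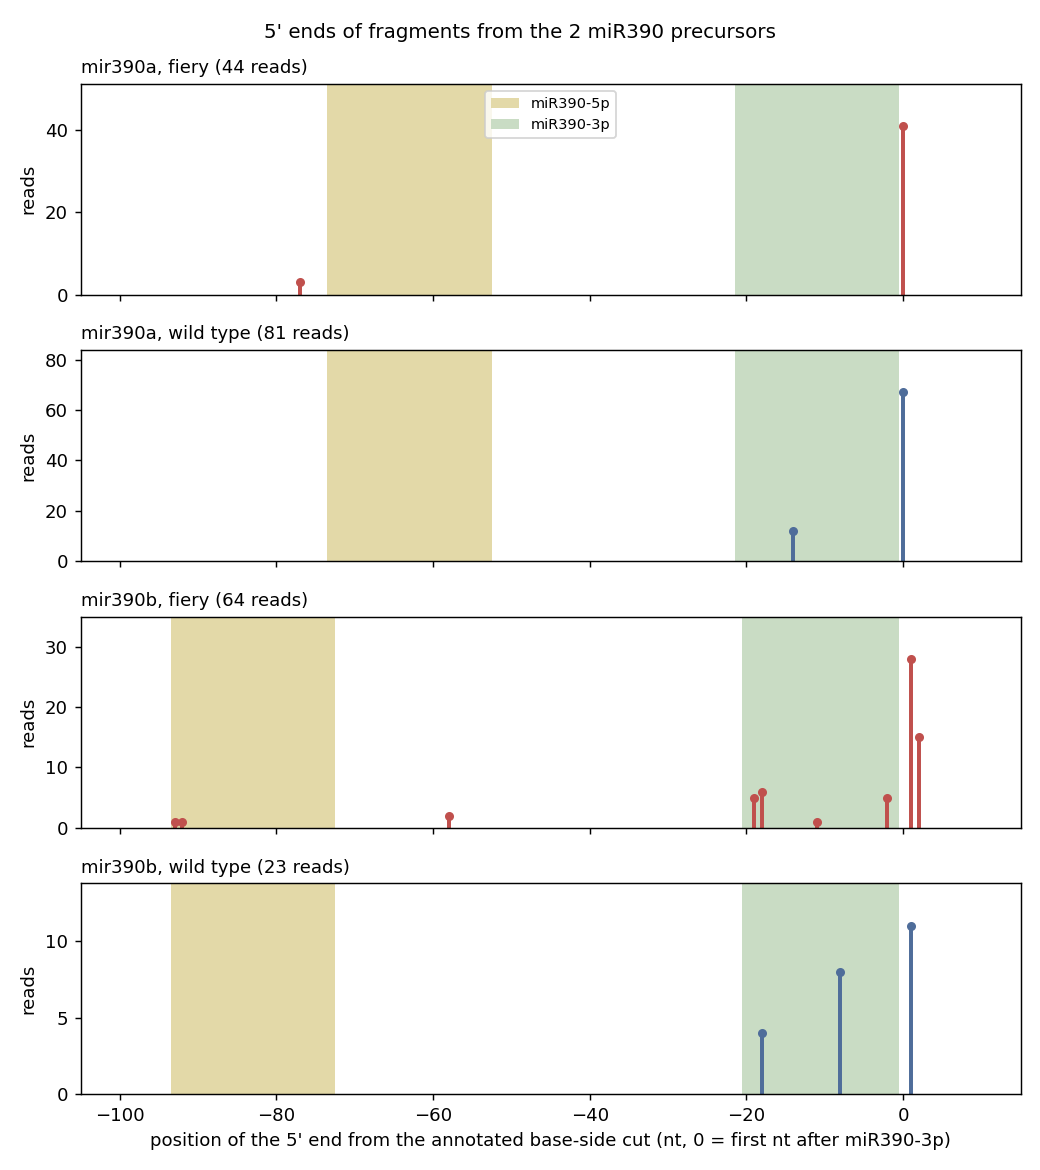
Number of reads (y axis, linear, own scale in each panel) by the position of their 5′ end in nt from the annotated base-side cut (x axis), for mir390a and mir390b, fiery above wild type. Shaded bands mark miR390-5p and miR390-3p. mir390a has a single line at the cut in both libraries (41 and 67 reads), whereas mir390b has lines at 3 positions around the cut in fiery (5, 28 and 15 reads) and at 1 in wild type (11 reads). The 2 wild-type reads of mir390a at 486 nt downstream of the precursor lie outside the axis. Wild-type ends of mir390b at -4 to -1 nt could not be seen.

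Both copies thus had their main end within 1 nt of the annotated base-side cut in fiery. That was so for 66.7% of the 51 precursors with at least 30 reads and 1 annotated mature RNA on the 3′ arm, so that the position of the main end did not set them apart. In wild type it was so for mir390a and for 54.3% of 35 precursors, while mir390b had fewer than 30 reads there. By the share of its reads within 1 nt of the cut, mir390a (93.2% in fiery) was exceeded by 5 of 49 other precursors, whose median was 71.1%. mir390b (43.8% in fiery) was exceeded by 29 of those 49. In wild type, mir390a (82.7%) was exceeded by 10 of 34 others, whose median was 22.0%.

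In fiery, the shares of the 2 copies at the base-side cut did not overlap within 1 nt, at 93.2% (81.3 to 98.6) for mir390a and 43.8% (31.4 to 56.7) for mir390b. This depended on the window and on the annotated length of miR390-3p. With the cut of mir390b set at 21 nt after the start of miR390-3p, it had 67.2% of its reads within 1 nt (54.3 to 78.4), still below the interval of mir390a. Within 2 nt of the annotated cut, mir390b had 48 of 64 reads (75.0%, 62.6 to 85.0), and the intervals of the copies overlapped. The difference between the copies in fiery was thus larger at 1 nt than at 2 nt around the cut. In wild type, the interval of mir390b (26.8 to 69.4) also lay below that of mir390a (72.7 to 90.2), since 12 of its 23 reads began inside miR390-3p. Wild-type ends of mir390b at -4 to -1 nt from the annotated cut could not be seen, so that its share there can be too low.

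The second question was whether the loop was cut first. Loop-side ends were seen for mir390b and not for mir390a, and all of them lay inside the annotated miR390-3p. In fiery, 5 reads began 1 nt and 6 reads 2 nt after its first nucleotide. In wild type, 4 reads began 2 nt after it. The loop-side share, counted over the reads at the 2 cuts, therefore changed with the window. Within 1 nt it was 5 of 33 reads in fiery (15.2%, 5.11 to 31.9) and 0 of 11 in wild type. The latter allows a share of up to 27.3% by 3 counts and 28.5% by the exact interval. Within 2 nt it was 11 of 59 reads in fiery (18.6%, 9.69 to 30.9) and 4 of 15 in wild type (26.7%, 7.79 to 55.1). At this depth no difference between the libraries was detectable. Wild-type ends of mir390b at -4 to -1 nt from the annotated base-side cut could not be seen (no tags of 46 to 49 nt). The wild-type base-side count can thus be too low and its loop-side share too high. The libraries were therefore not compared over like positions. At the exact annotated positions mir390b had no read at either cut in either library.

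**Figure D2:**
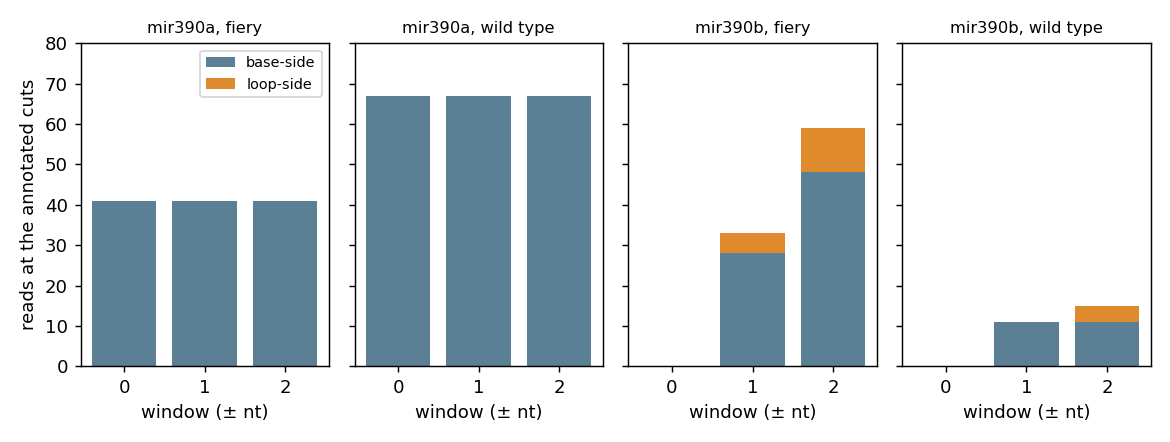
Reads at the annotated cuts (y axis) counted at the exact position, within 1 nt and within 2 nt (x axis), with base-side reads below and loop-side reads stacked above them, for mir390a and mir390b in fiery and then in wild type. The bars of mir390a (41 and 67 reads) do not change with the window, while those of mir390b grow to 59 reads in fiery and 15 in wild type. Wild-type ends of mir390b at -4 to -1 nt from the base-side cut could not be seen.

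Within 2 nt the interval of mir390b in fiery (9.69 to 30.9) lay above the exact upper bound for mir390a there (8.60%). Within 1 nt the lower bound of mir390b (5.11) lay below that upper bound. Among 31 other precursors with at least 30 reads at the 2 cuts in fiery, the median loop-side share within 1 nt was 0.280%, and 12 had no loop-side read. Of these, 4 had a higher share than mir390b. The nearest to mir390b were mir171c with 16.9% (13.2 to 21.2), mir156b with 12.0% (4.53 to 24.3) and mir825 with 11.9% (7.30 to 17.9). With the base-side cut of mir390b set at 21 nt, its loop-side share in fiery was 10.4% (3.47 to 22.7). That value is below each of these nearest ones, so that the place of mir390b in this ranking depended on the annotated cut.

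mir390b also gave the only reads in which the other arm was cut at the duplex. In fiery, 1 read began at the first and 1 read at the second nucleotide of miR390-5p, and both ran through the mature strand into the loop region. Such a fragment has the base cut on the 5′ arm and the loop still attached. With the primer taken to lie beyond the base, the 3′ arm of that fragment was not cut. A further 2 fiery reads began inside the loop region, 38 nt before the loop-side cut. Wild type had no such read among 23 of mir390b and 81 of mir390a. These ends rest on 1 or 2 reads each, so their shares (1.56% each at the start of miR390-5p, 3.13% in the loop) carry wide intervals (0.0396 to 8.40, and 0.381 to 10.8).

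**Figure D3:**
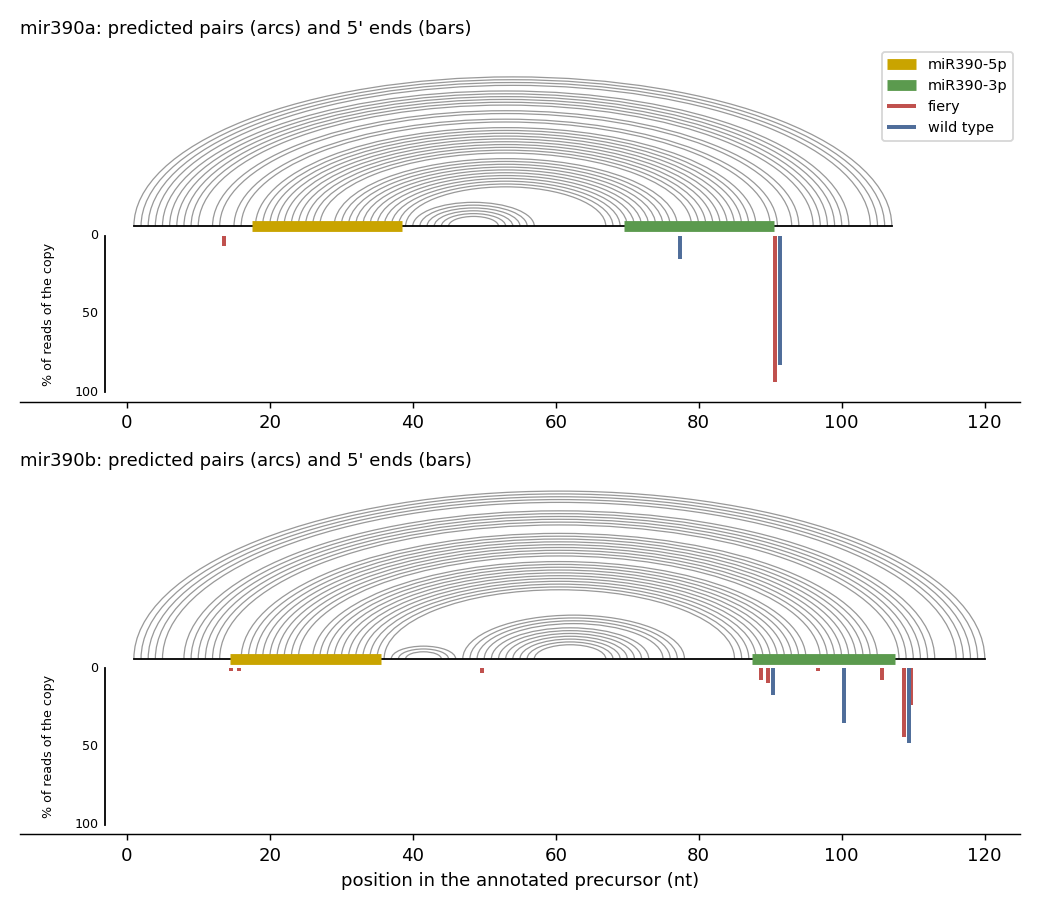
Predicted base pairs of the annotated precursors (arcs) over the position in nt (x axis), with miR390-5p and miR390-3p as thick bars and, below, the percent of the reads of the copy that began at each position (downward bars, fiery left of wild type at the same position). The largest bar of each copy and library sits at the base of the duplex on the 3′ arm. It has 93.2% (fiery) and 82.7% (wild type) in mir390a, and 43.8% and 47.8% in mir390b. In wild type, mir390b also has a bar of 34.8% inside miR390-3p. The region between the strands of mir390b folds into 2 loops.

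Ends inside miR390-3p and more than 2 nt from either cut were found mostly in wild type. They held 0 of 44 reads of mir390a and 1 of 64 reads of mir390b in fiery. In wild type they held 12 of 81 reads of mir390a, all at nucleotide 8 of miR390-3p, and 8 of 23 reads of mir390b (34.8%, 16.4 to 57.3), all at nucleotide 13. The positions thus differed between the copies, and each rested on a single tag. The comparison with other precursors counted ends inside the 3′ strand more than 1 nt from either cut, which left the reads of mir390a unchanged. By that count, mir390a in wild type (14.8%) was exceeded by 2 of 34 other precursors, of which 20 had no such read. In fiery, 12 of 49 others had no such read. The median of the others was 1.67% in fiery and 0% in wild type, so that they did not share the excess in wild type. In fiery, mir390b (18.8%) was exceeded by 8 of the 49 and mir390a (0%) by 37. For mir390b that count gave 12 of 64 reads in fiery and 12 of 23 in wild type, so the size of its contrast depended on the window. The wild-type tags at nucleotides 8 and 13 are 50 nt long, and fiery tags end at 40 nt. The end of mir390b at nucleotide 3 of miR390-3p was read in both libraries, with 50 nt in wild type and 40 nt in fiery. The part of read length in the result was not tested.

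The third question was how many fragments each copy gave in the 2 libraries. Each copy has its own primer, which affects its read count, and so each was compared with itself between libraries. mir390a held 0.133% of all reads in fiery (44 reads, 0.0963 to 0.178) and 0.668% in wild type (81 reads, 0.531 to 0.829). Its share was thus 5.04-fold higher in wild type (3.45 to 7.45). mir390b held 0.193% in fiery (64 reads, 0.149 to 0.246) and 0.190% in wild type (23 reads, 0.120 to 0.284), a ratio of 1.02 (0.623 to 1.72), fiery over wild type. It had 87 reads in both libraries together, below the minimum of 100 set for ratios. A fragment share reflects how much precursor was made, how it was cut and how long its fragments lasted, which cannot be told apart here.

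A difference of more than 2-fold was common among these precursors. Of 47 with at least 100 reads, 38.3% were more than 2-fold lower in fiery and 40.4% more than 2-fold higher, so that the lower share of mir390a is close to what many precursors showed. The precursors with the nearest ratios were mir172d, whose fiery over wild-type ratio was 0.207 (0.146 to 0.291), mir166e with 0.221 (0.158 to 0.308) and mir166b with 0.165 (0.138 to 0.197). The ratio of mir390a was 0.198 (0.134 to 0.290).

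Both ratios depended on which reads made up the total. All tags of mir390a and mir390b were at least 40 nt long, and tags longer than 35 nt made up 77.6% of all reads in fiery and 34.4% in wild type. Against those tags alone, the ratio was 0.0880 (0.0595 to 0.129) for mir390a and 0.451 (0.276 to 0.761) for mir390b, so that the interval of mir390b then lay below 1. After division by 0.520, the median ratio over 31 precursors that reached 30 reads in both libraries, it was 0.381 (0.258 to 0.557) for mir390a and 1.95 (1.20 to 3.30) for mir390b, whose interval then lay above 1. The ratio of mir390a lay below 1 with each of these totals, and mir390b had no direction that held. With distinct tags counted once, the ratio of mir390a was 0.257, and its interval (0.0215 to 2.24) held 1.

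**Figure D4:**
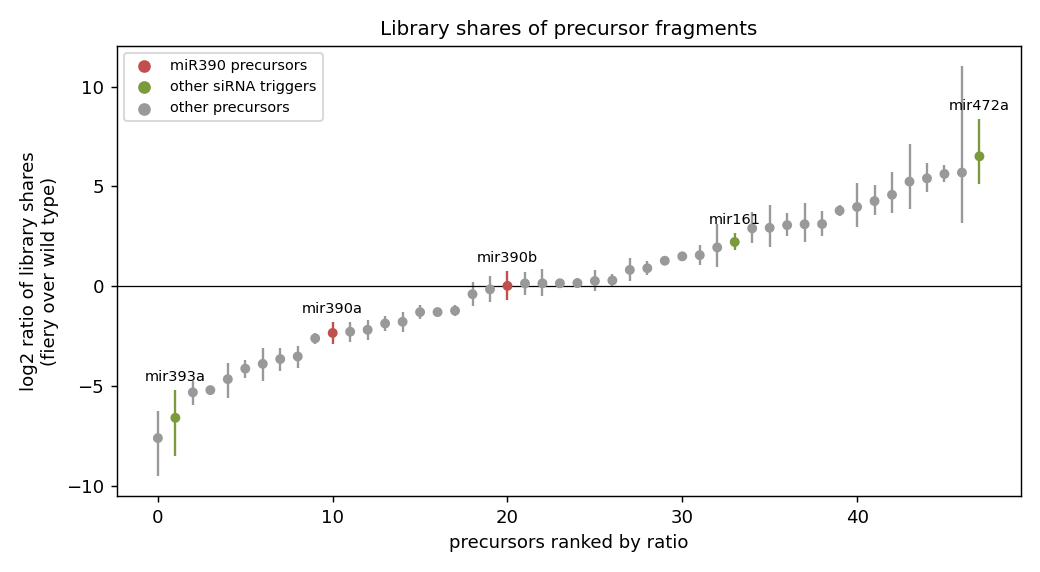
Log2 ratio of library shares, fiery over wild type (y axis), of the 47 precursors with at least 100 reads and of mir390b, ranked from lowest to highest (x axis), with exact 95% intervals as vertical lines. mir390a (log2 ratio -2.33) lies among the lower precursors and mir390b (0.02) near 0, while the other triggers of secondary siRNAs in the plot, mir393a (-6.58), mir161 (2.22) and mir472a (6.51), lie on both sides of 0.

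The split between the copies does not use the library total. mir390a gave 40.7% of the reads of both copies in fiery (44 of 108, 31.4 to 50.6) and 77.9% in wild type (81 of 104, 68.7 to 85.4), and these intervals do not overlap. With distinct tags counted once, which sets aside how often each was read, the split was 2 of 11 tags in fiery (18.2%, 2.28 to 51.8) and 3 of 6 in wild type (50%, 11.8 to 88.2), and the intervals overlapped. The ratio of mir390b was 5.12-fold that of mir390a, a difference of 2.36 on the log2 scale. Copies of other families were often as far apart. Among 25 other pairs of copies from 11 families with at least 50 reads per copy, the log2 ratios differed by a median of 2.26, with 0.13 in the closest pair and 5.93 in the most distant, and 11 pairs differed by more. The shift between mir390a and mir390b was therefore of ordinary size in these libraries.

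Of 9 precursors whose microRNAs trigger secondary siRNAs in Arabidopsis, 4 had at least 100 reads in both libraries together. Of these, 2 were more than 2-fold lower in fiery and 2 more than 2-fold higher, and their median log2 ratio was -0.06, against 0.16 over all 47 precursors. mir393a, whose product targets auxin receptor genes, had 4 reads in fiery and 140 in wild type, a ratio of 0.0104 (0.00281 to 0.0273). mir472a, which yields a regulator of disease resistance genes, had 997 reads in fiery and 4 in wild type, a ratio of 91.1 (35.5 to 335). mir161, whose product targets PPR genes, had 663 reads in fiery and 52 in wild type, a ratio of 4.66 (3.51 to 6.30). Below 100 reads, mir400, whose product also targets PPR genes, had 42 reads in fiery and 2 in wild type, a ratio of 7.67 (2.00 to 65.4). mir173, whose product triggers siRNAs from TAS1 and TAS2, had 6 reads in fiery and 22 in wild type, a ratio of 0.0997 (0.0331 to 0.253), and was named after its values were seen. Over all 9, the interval of the ratio lay below 1 for 3 (mir173, mir390a and mir393a), above 1 for 3 (mir161, mir400 and mir472a) and held 1 for 3 (mir390b, mir393b and mir828).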

How the data were processed

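The authors deposited, for each library, a list of sequence tags with a precursor name and an abundance, which are whole-number read counts with no normalisation that the values show. Per the labels' protocols, RNA depleted of ribosomal RNA was ligated to an RNA adaptor, reverse transcribed with precursor-specific primers and amplified in 18 PCR cycles. Bowtie and the TAIR10 build are named, without version or settings, per the submitters' processing notes. Trimming and filters are not stated there.

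Tags were matched exactly to TAIR10.1 (RefSeq) within 5000 nt of the named precursor, where 100% were found. Tags of mir390a and mir390b were also searched in the whole genome, and each had 1 match. Cuts came from the annotated miR390-3p, with a window of 1 nt. Precursors were compared with at least 30 reads for ends, 100 for ratios and 50 for pairs of copies. The mir405 copies were counted together. Named were both copies, triggers of secondary siRNAs with at least 30 reads in either library and the 3 precursors nearest in ratio and in loop-side share. Members, lists and rules were chosen with earlier results of these data known, and the pairs of copies, the cut set at 21 nt and the 40 nt alternative after these values were seen. Interval coverage was simulated with independent Poisson counts, which reads copied by PCR are not. The placement check looked up sequences in the same stretch of genome they were cut from. It could hardly fail, and nothing is drawn from it. Other windows, tag lengths, totals, distinct tags and scaling were tried. Python 3.11.15, scipy 1.17.1, pandas 2.3.3, biopython 1.88, matplotlib 3.10.9 and RNAfold 2.7.2 were used.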

Additional observations from a re-analysis of the deposited data

How the results depend on the processing

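Over 20 results there were 122 alternative values. Of these, 40 could not differ, since every member tag is at least 40 nt long with 1 genome match, so that these settings keep all reads behind the ends and the split. Of the other 82, 54 lay within the interval of the value reported (main ends within 1 nt) and 28 outside it. The 54 include further values that could not differ. Keeping only reads inside the annotated precursor removed 2 wild-type reads of mir390a, and none of mir390b or of mir390a in fiery. The 54 are thus not a measure of how stable the results are. No called ratio changed direction, but with distinct tags counted once the interval of the mir390a ratio held 1 (0.257, 0.0215 to 2.24). With tags over 35 nt, mir390a held 1.94% of wild-type reads and mir390b 0.248% in fiery and 0.551% in wild type, with ratios of 0.0880 and 0.451. With tags of at least 40 nt in both, an alternative chosen after the data were seen, these were 1.97%, 0.248%, 0.559%, 0.0867 and 0.444. Without the most abundant precursor of each library, mir390a held 0.931% in wild type. Relative to the median ratio the ratios were 0.381 and 1.95, and with both copies summed 0.379. The base-side share of mir390b was 0% in fiery and 0% in wild type at the exact position, 75.0% in fiery within 2 nt and 67.2% in fiery with the cut set at 21 nt (also chosen after the data were seen). With distinct tags counted once, mir390a held 0.443% in wild type and mir390b 0.513% in fiery and 0.443% in wild type, and mir390a made up 18.2% (fiery, 2.28 to 51.8) and 50% (wild type, 11.8 to 88.2) of the tags of both copies, so that the separation of the libraries in this split was lost. The base-side share of distinct tags was 50% in fiery and 33.3% in wild type for mir390a, and 11.1% in fiery for mir390b, whose loop-side share in fiery was 50%. No main end could be given, since all ends with a tag each tied. These values rest on 2 to 9 tags. No member tag had 35 nt or less, so that the alternative with only those short tags gave no value. For the values that moved, the cause was not tested, other than that fewer reads or tags entered. No paired analysis was possible because each genotype had 1 library. With 23 to 81 reads per copy and library, shares of a few percent could not be told from 0.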
